A study of Mus musculus with 10 samples.

Results

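The genes described here are 8 transcripts of blood cells, 4 known from red cells (Hba-a1, Hbb-b1, Alas2 and Slc4a1) and 4 known from neutrophils (S100a8, S100a9, Ngp and Camp). They were taken by gene name from the probe annotation of the array, which gave 11 of the 41174 non-control probes, 7 for the red cell genes and 4 for the neutrophil genes. Hbb-b1 had 4 probes and every other gene had 1. All 8 genes passed the filter on dim probes in both groups and are among the 20070 genes tested.

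RNA was measured in the hippocampus of 10 adult ICR mice, labelled male, on 1-colour Agilent arrays. The 5 animals of the HE group were offspring of dams given estradiol valerate in corn oil by mouth at 100 µg/kg per day from E5.5 to E11.5 (embryonic days). The 5 animals of the NC group were offspring of dams given corn oil alone. The labels do not say which animals shared a litter, nor whether the brains were perfused to clear blood, so each array is treated as 1 animal. The p-values set the group difference against the spread between these arrays. They do not account for shared litters, although it was the dams that were dosed. Values are log2 signals relative to the 75th percentile of the same array, so that a difference of 1 is a 2-fold change and a value below 0 is dimmer than that percentile. A probe's level is compared between arrays and not with that of another probe, with 2 exceptions. These are the sums over gene lists, where bright probes weigh most, and the choice of a gene's probe by its mean.

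Red cells carry oxygen on hemoglobin, which is built from alpha and beta globin chains that each hold a heme. The globin genes and Alas2 are transcribed most strongly in maturing red cells, and young red cells in the circulation still carry these transcripts, although globin transcripts have also been described in some neurons and glia. Neutrophils are short-lived phagocytes of the blood that fill their granules with antimicrobial proteins while they mature in the marrow.

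The arrays had a 75th percentile intensity of 899.4 to 1288.8, and the share of probes well above background was 70.8% to 79.3%. The first 4 NC arrays shared slide 1, NC 5 lay with HE 1 and HE 2 on slide 2, and the last 3 HE arrays shared slide 3, so that 1 slide carried both groups. Xist, the RNA of the inactive X chromosome, was low on NC 5, HE 4 and HE 5 (-7.26 to -4.53) and high on all other arrays (3.2 to 4.44), so 7 of the 10 arrays did not match the male label. All 10 hippocampal neuron genes were measured, with an array median of -0.25 to 2.09 in NC and 1.01 to 2.56 in HE. Genes of neighbouring thalamus were also present, and all 8 of them fell in HE, with array medians of 0.67 to 3.24 in NC and -0.46 to 0.91 in HE (log2 of their summed level 5.11 to 6.28 and 2.81 to 4.46). Of 9 liver plasma protein genes 4 fell, though 7 of the 9 entered only through NC arrays where they were bright, and with a probe required well above background on all arrays of a group 2 were tested and none fell. Alb, the serum albumin gene, was high on NC 1, NC 2 and NC 4 (-0.23 to 0.5) but low on NC 3 (-7.93) and NC 5 (-4.82), against -8.77 to -5.7 in HE (log2 of the list's summed level 0.64 to 4.23 in NC and -1.13 to 3.78 in HE). The part of these markers, of slide and of the Xist pattern in the results below was not tested, apart from a few fits. Those fits left out the arrays concerned, stayed within slide 2, blocked by slide or took the Xist pattern as a covariate.

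All 8 genes had a lower mean in HE than in NC. Hbb-b1, the beta globin gene, fell 1.99-fold and Ngp, a protein of neutrophil granules, fell 3.99-fold, and these alone of the 8 passed (limma, adjusted p below 0.05), 1 of 4 in each class. Over all genes tested, 20.1% passed in either direction, 13.3% as lower and 6.83% as higher in HE. An unadjusted p under 0.05 and a lower mean were found for 3 of 4 genes in each class, and for 22.8% of all genes. The median log2 fold change was -1.08 for the red cell genes and -1.74 for the neutrophil genes, beside -0.04 for all 20070 genes. A fold change below 0 was shared by 54.6% of all genes, and one of -1 or less by 7.31%, against 2 of 4 red cell genes and 4 of 4 neutrophil genes. In bulk tissue, fewer cells of a type and less RNA per cell cannot be told apart, so these values are amounts of transcript relative to the rest of the RNA on the array.

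**Figure D1:**
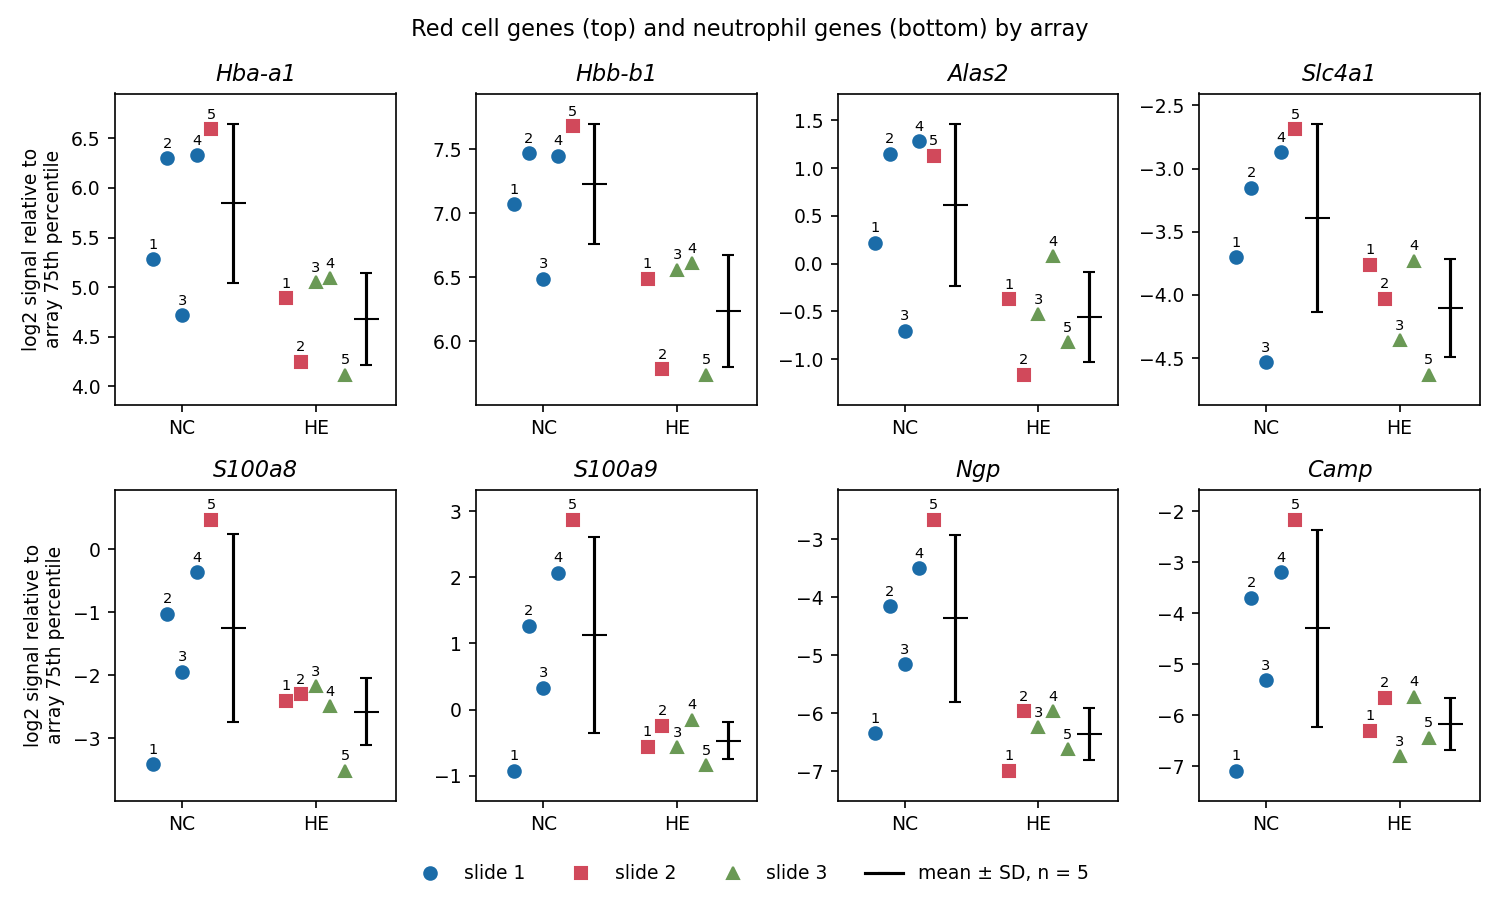
Log2 signal relative to the array's 75th percentile (vertical axis) for each gene's main probe on the 5 NC and 5 HE arrays; numbers are array numbers, colours and shapes are slides, and bars are the mean ± SD (n = 5). The arrays NC 2, NC 4 and NC 5 are the highest for every gene, while NC 3 is the lowest NC array for the red cell genes and NC 1 for the neutrophil genes.

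Hba-a1 encodes an alpha globin chain and is 1 of a pair of nearly identical alpha genes. Its probe maps to chr11:32183775-32183956 (mm9, plus strand), where its 60 bases span 182 bases of genome, and the annotation lists transcripts of both alpha genes for it. It is shown beside the probe of the second alpha gene, Hba-a2, since 30 bases of the one overlap 30 of the other with 3 differing bases, in capitals.
Hba-a1 probe: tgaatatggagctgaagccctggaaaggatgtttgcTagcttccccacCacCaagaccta
Hba-a2 probe: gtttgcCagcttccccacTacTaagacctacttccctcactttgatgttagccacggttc
With 27 of 30 overlapping bases the same, the signals of the alpha genes cannot be fully separated.

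Hba-a1 read 5.28, 6.3, 4.72, 6.33 and 6.59 on NC 1 to NC 5 and 4.89, 4.25, 5.05, 5.09 and 4.12 on HE 1 to HE 5. NC 1, NC 2, NC 4 and NC 5 lay above every HE array, and NC 3 lay below HE 1, HE 3 and HE 4, so the groups overlapped. The mean was 5.85 ± 0.80 (SD, n = 5) in NC and 4.68 ± 0.46 in HE, a log2 fold change of -1.17 ± 0.37 SE. It did not pass in the limma fit over genes (adjusted p = 0.0524), with a 95% interval of -2.0 to -0.33, and passed narrowly in the fit over all probes (adjusted p = 0.0472), where 14.7% of 30984 probes passed as lower and 23% in either direction. The exact permutation test over the 10 arrays gave p = 0.0397, two-sided, where 5 against 5 arrays can give 0.0079 at the least. These tests were run for 11 probes, and their p-values are not adjusted.

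Hbb-b1 encodes a beta globin chain of the adult. All 4 of its probes map to the minus strand of chromosome 7 in mm9, at chr7:110962317-110962376, chr7:110962000-110962059, chr7:110962031-110962090 and chr7:110961112-110961171. The annotation of the array names them Hbb-b1, but the RefSeq table gives their accession the symbol Hbb-bt, and each probe lists 2 or 3 beta globin transcripts, so a beta globin signal here may come from more than 1 gene. The probe that stands for the gene is shown with the probe that overlaps it, and the 29 bases they share are in capitals.
Hbb-b1 main probe: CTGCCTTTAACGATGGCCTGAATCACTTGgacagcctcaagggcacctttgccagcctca
Hbb-b1 overlapping probe: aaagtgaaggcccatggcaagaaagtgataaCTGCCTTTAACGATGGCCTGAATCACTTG
These probes therefore share part of their target, and all 4 share the transcript, so they repeat a measurement rather than add replicates.

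On the main probe Hbb-b1 read 7.07, 7.47, 6.49, 7.45 and 7.68 on NC 1 to NC 5 and 6.49, 5.78, 6.56, 6.61 and 5.74 on HE 1 to HE 5. As for Hba-a1, the other 4 NC arrays lay above every HE array while NC 3 lay among them. The mean went from 7.23 ± 0.47 (SD, n = 5) to 6.24 ± 0.44, a log2 fold change of -1.0 ± 0.26 SE (limma adjusted p = 0.0283; exact permutation p = 0.0238). The probe at chr7:110962317-110962376 read 5.34, 6.18, 5.15, 6.28 and 6.15 in NC and 4.96, 3.94, 5.09, 5.07 and 4.34 in HE. This was the only probe of the 11 on which all 5 HE arrays lay below all 5 NC arrays (log2 fold change -1.14, limma adjusted p = 0.0254 over probes), with a gap of NC 3 at 5.15 to HE 3 at 5.09. No gene's main probe separated the groups in this way, beside 10.5% of all genes tested. The remaining 2 probes had -1.12 and -1.01 (limma adjusted p = 0.0255 and 0.0438 over probes), so all 4 passed. In all, 6 of the 11 probes passed as lower, the 4 of Hbb-b1 and those of Hba-a1 and Ngp.

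The call of Hbb-b1 depended on single arrays. Leaving out each array in turn gave log2 fold changes of -1.18 to -0.87, and the gene passed in 6 of 10. It did not pass without NC 2 (-0.94, limma adjusted p = 0.0670), NC 5 (-0.88, 0.0644), HE 2 (-0.88, 0.0549) or HE 5 (-0.87, 0.0577). Without NC 3 all 4 red cell genes passed, Hbb-b1 with -1.18, Hba-a1 with -1.45, Alas2 with -1.5 and Slc4a1 with -1.0. NC 3 was the lowest NC array for each of them, so leaving it out favours such calls. In that fit 13.3% of all genes passed as lower. With the replicate number as a block Hbb-b1 did not pass (adjusted p = 0.0788).

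Alas2, the erythroid form of the enzyme that opens heme synthesis, was measured by 1 probe at chrX:147004993-147005052 (mm9, plus strand). It read 0.22, 1.15, -0.7, 1.28 and 1.13 on NC 1 to NC 5 and -0.37, -1.16, -0.53, 0.08 and -0.82 on HE 1 to HE 5. NC 3 again lay among the HE arrays, below HE 1, HE 3 and HE 4. The mean was 0.62 ± 0.85 (SD, n = 5) in NC and -0.56 ± 0.47 in HE. The log2 fold change of -1.18 ± 0.39 SE did not pass (limma adjusted p = 0.0585; exact permutation p = 0.0476), and its 95% interval ran from -2.05 to -0.31.

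Slc4a1, the band 3 anion exchanger of the red cell membrane, was measured by 1 probe (chr11:102210256-102210315, mm9, minus strand) that was well above background on all 10 arrays. It read -3.7, -3.15, -4.53, -2.87 and -2.69 in NC and -3.76, -4.03, -4.36, -3.73 and -4.63 in HE. NC 3 lay below all HE arrays except HE 5, and NC 1 lay just above HE 4. The log2 fold change was -0.71 ± 0.34 SE with a 95% interval of -1.47 to 0.04, and did not pass (limma adjusted p = 0.157; exact permutation p = 0.0873).

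Within NC the neutrophil genes had an SD of 1.44 to 1.93 on the log2 scale and the red cell genes one of 0.47 to 0.85, and in HE these were 0.28 to 0.54 and 0.39 to 0.47. The difference between the classes in spread was not tested.

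S100a8 and S100a9 encode the subunits of calprotectin, an abundant calcium-binding and metal-binding protein of the neutrophil cytosol. Their genes lie near each other on chromosome 3, with probes at chr3:90473778-90473837 (plus strand) and chr3:90496585-90496644 (minus strand) in mm9. S100a8 read -3.41, -1.02, -1.94, -0.36 and 0.47 on NC 1 to NC 5 and -2.4, -2.3, -2.17, -2.49 and -3.51 on HE 1 to HE 5. S100a9 read -0.92, 1.27, 0.33, 2.07 and 2.87 in NC and -0.56, -0.24, -0.57, -0.15 and -0.84 in HE. In both genes NC 2 to NC 5 lay above every HE array, while NC 1 was the lowest of the 10 for S100a9 and lay above HE 5 alone for S100a8. S100a8 went from -1.25 ± 1.5 (SD, n = 5) to -2.57 ± 0.54, a log2 fold change of -1.33 ± 0.64 SE that did not pass (limma adjusted p = 0.160; exact permutation p = 0.0873). S100a9 went from 1.13 ± 1.48 to -0.47 ± 0.28, a log2 fold change of -1.60 ± 0.61 SE that did not pass either (limma adjusted p = 0.0859; exact permutation p = 0.0556). The 95% intervals ran from -2.74 to 0.09 and from -2.95 to -0.25.

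Ngp, a granule protein of the cystatin and cathelicidin family, gave the only neutrophil call. Its probe is shown because the call rests on it alone. It maps to chr9:110324266-110324814 (mm9, plus strand), where its 60 bases span 549 bases of genome.
Ngp probe: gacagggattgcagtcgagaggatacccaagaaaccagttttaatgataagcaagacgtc
Ngp read -6.35, -4.15, -5.15, -3.5 and -2.66 on NC 1 to NC 5 and -6.99, -5.97, -6.24, -5.97 and -6.62 on HE 1 to HE 5, and was well above background on 5 NC and 4 HE arrays. NC 1 lay among the HE arrays and the other NC arrays lay above them. The mean went from -4.36 ± 1.44 (SD, n = 5) to -6.36 ± 0.44, a log2 fold change of -2.0 ± 0.60 SE (limma adjusted p = 0.0427; exact permutation p = 0.0317). Leaving out each array in turn gave -2.49 to -1.57, and Ngp passed in 2 of 10, without NC 1 (limma adjusted p = 0.0127) and without NC 3 (0.0436). The call was lost when NC 2 (-1.94), NC 4 (-1.78), NC 5 (-1.57) or an HE array, whichever it was (-2.09 to -1.84), was left out. It passed with the replicate number as a block (adjusted p = 0.0430).

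Camp, the cathelicidin precursor that is cleaved to an antimicrobial peptide, was measured by 1 probe. This probe, at chr9:109749992-109750051 (mm9, minus strand), read -7.08, -3.69, -5.31, -3.19 and -2.16 in NC and -6.3, -5.65, -6.8, -5.63 and -6.44 in HE. NC 1 was the lowest of all 10 arrays, and NC 2 to NC 5 lay above every HE array. Camp was well above background on 4 NC and 3 HE arrays, so its lowest values lie near the limit of the arrays. The log2 fold change of -1.88 ± 0.80 SE did not pass (limma adjusted p = 0.119; exact permutation p = 0.0873), and its 95% interval ran from -3.66 to -0.09. Without NC 1 all 4 neutrophil genes passed, with log2 fold changes of -2.57 for Camp, -2.49 for Ngp, -2.11 for S100a9 and -1.86 for S100a8. NC 1 was the lowest NC array for each of them, so leaving it out favours such calls. In that fit 12.6% of all genes passed as lower.

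**Figure D2:**
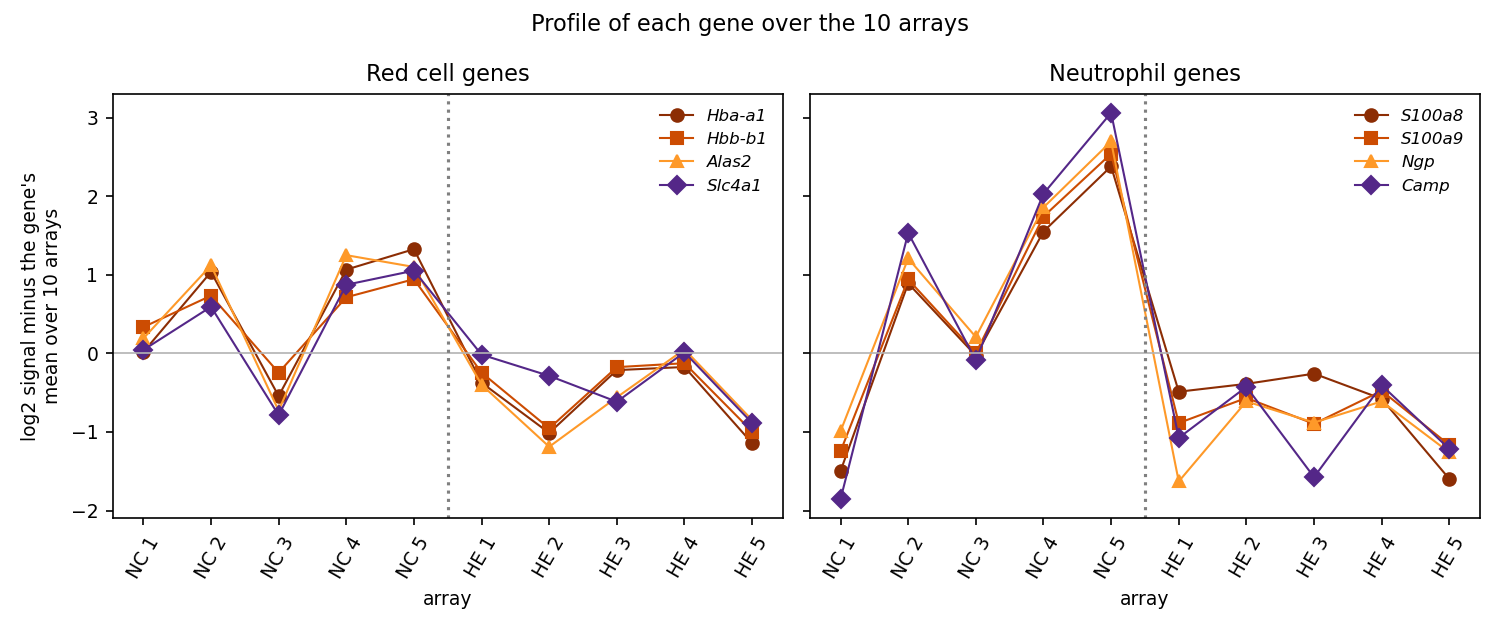
Log2 signal of each gene minus its own mean over the 10 arrays (vertical axis), by array, for the red cell genes (left) and the neutrophil genes (right); lines only join the values of a gene, and the dotted line divides NC from HE. NC 1 is near the mean for the red cell genes and among the lowest arrays for the neutrophil genes, and NC 3 is below the mean for the red cell genes and near it for the neutrophil genes.

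Slide bears on these differences because NC 5, the highest of the 10 arrays for every gene except Alas2, was the only NC array on a slide with HE arrays. Within slide 2, which is also the value with slide as a fixed block, the log2 fold changes were larger for every gene, at -2.02 for Hba-a1, -1.55 for Hbb-b1, -1.89 for Alas2 and -1.20 for Slc4a1. For the neutrophil genes they were -2.82 for S100a8, -3.28 for S100a9, -3.82 for Ngp and -3.81 for Camp. None passed with this block, with limma adjusted p of 0.0951 for Ngp to 0.288 for Slc4a1, where 0.922% of all genes passed. Xist was low on the NC array of slide 2 and high on its HE arrays, so the group difference there is also a difference in that pattern. The spread among NC arrays was present within slide 1 alone, where S100a9 ran from -0.92 on NC 1 to 2.07 on NC 4 and Hba-a1 from 4.72 on NC 3 to 6.33 on NC 4. Without NC 1, NC 2 and NC 4, the arrays with high Alb, none of the 8 genes passed. Hbb-b1 had -0.85 (limma adjusted p = 0.185) and Ngp -2.45 (0.0568). In that fit 5.51% of all genes passed as lower. On the 7 arrays with high Xist none passed either, where 0.366% of all genes passed as lower. The log2 fold changes there were -0.49 for Slc4a1 to -1.17 for Alas2 among the red cell genes. Among the neutrophil genes they ran from -0.61 for S100a8 to -1.61 for Ngp. With the Xist pattern as a covariate on all 10 arrays, 1 of 4 genes in each class passed, the same counts as without it. The class medians were -1.13 (red cell) and -1.94 (neutrophil), and 14.8% of all genes passed as lower.

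**Figure D3:**
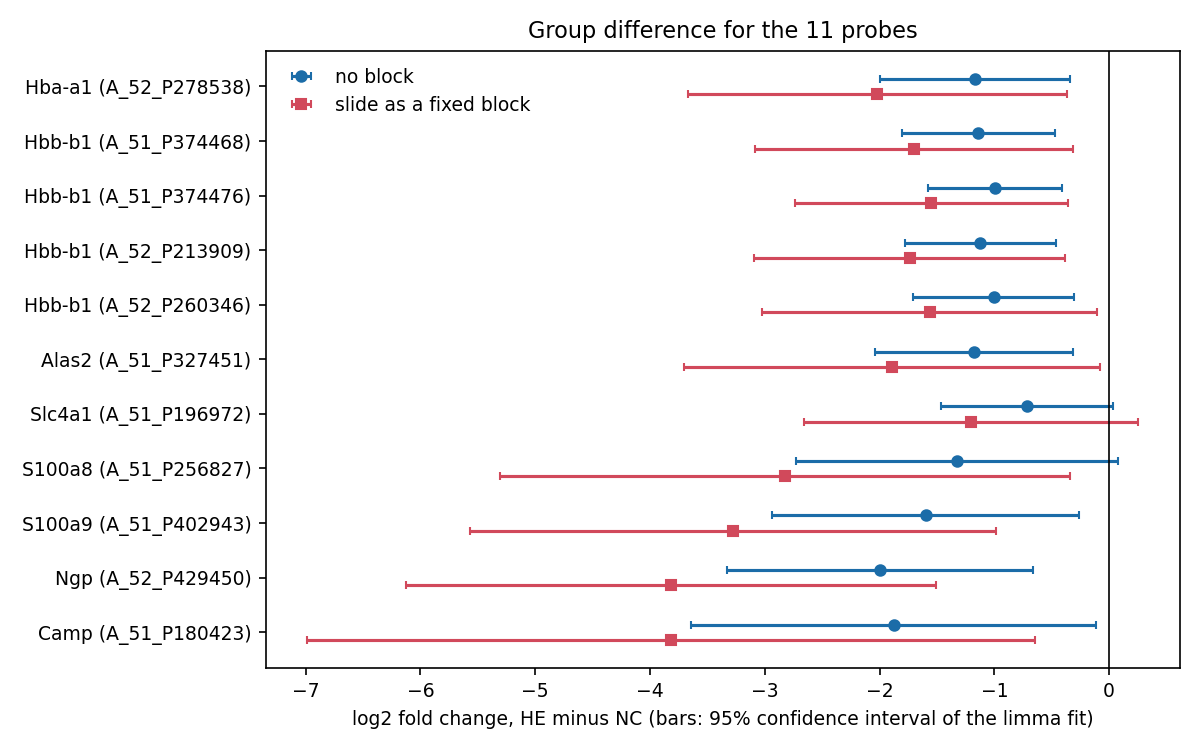
Log2 fold change of HE minus NC (horizontal axis) for each of the 11 probes with the 95% confidence interval of the limma fit, without a block (circles) and with slide as a fixed block (squares). All 22 estimates lie below 0, and the blocked ones, which rest on NC 5 against HE 1 and HE 2, lie further from 0 with wider intervals.

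Whether the genes of a class varied together was read from the 28 pairs of the 8 genes over the 10 arrays. The 6 pairs of red cell genes had Pearson r of 0.86 to 0.976 (Spearman rho 0.891 to 0.976), and the 6 pairs of neutrophil genes 0.935 to 0.987 (rho 0.818 to 0.988). All 12 passed by permutation over the 28 pairs, with Benjamini-Hochberg adjusted p of at most 0.00513 and 0.000716 for Pearson r. Hba-a1 and Hbb-b1 had r = 0.976, Hbb-b1 and Alas2 had 0.947, and S100a9 and Camp had 0.987. Since both classes were lower in HE, r was also taken after group means were removed, and was 0.815 to 0.958 and 0.918 to 0.982. After slide means were removed it was 0.893 to 0.978 and 0.932 to 0.987, and without the 2 arrays farthest from the median of the x measure 0.757 to 0.964 and 0.785 to 0.97.

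Between a red cell gene and a neutrophil gene, the 16 pairs had r of 0.701 to 0.848, lower than any pair within a class. For Pearson r all 16 passed (adjusted p at most 0.0263), but for Spearman rho, at 0.515 to 0.697, none of the 16 passed (adjusted p 0.0652 to 0.133). Without NC 5, 9 of the 16 passed for Pearson r. Without the 2 arrays farthest from the median, r fell to between 0.424 and 0.688, and with group means removed it was 0.472 to 0.754. For Hbb-b1 and S100a9, r was 0.76 over all arrays and 0.57 without NC 2 and NC 5. By r with Hbb-b1, S100a9 ranked 754 among 20024 genes, so an r of this size was not rare. The share of all gene pairs that would pass was not computed. The arrays that set the classes apart were NC 1, with Hbb-b1 at 7.07 and S100a9 at its lowest, and NC 3, with Hbb-b1 at 6.49 among the HE values and S100a9 at 0.33 above them. That the within-class and between-class r differ was not tested.

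**Figure D4:**
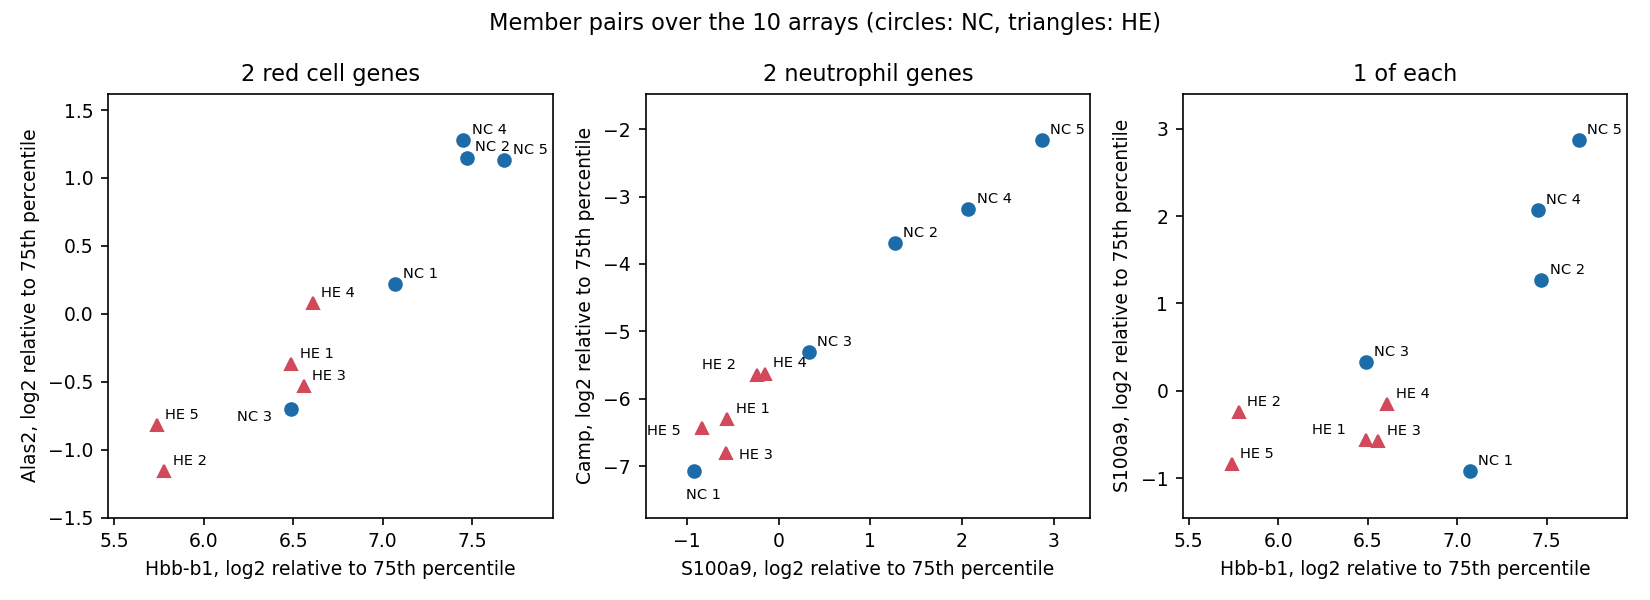
Log2 signals relative to the 75th percentile of a pair of red cell genes (left), a pair of neutrophil genes (middle) and 1 gene of each class (right) over the 10 arrays, with NC as circles and HE as triangles. Points follow a line in the left and middle panels (r = 0.947 and 0.987), and NC 1 and NC 3 leave it in the right panel (r = 0.76).

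The genes most like Hbb-b1 were ranked by Pearson r over the 10 arrays among 15323 genes with an ordinary symbol. Among them Hba-a2 came first (r = 0.968), followed by Sardh (0.963), Isg20 (0.956), Ppp1r17 (0.941) and Crebl2 (0.934). Over 20024 genes with the members included, Hba-a1 ranked 1, Alas2 ranked 5 and Slc4a1 ranked 78. The neutrophil genes ranked from 599 (Ngp) to 1483 (Camp). With group means removed r was 0.851 to 0.933 for the 5 genes that are not members. Their log2 fold changes were -1.15 for Hba-a2, -0.23 for Sardh, -0.81 for Isg20, -1.59 for Ppp1r17 and -0.84 for Crebl2, and are a description, since r over both groups favours genes that are lower in HE.

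For S100a9 the most alike were Retnlg, a resistin-like gene of neutrophils (r = 0.989), Ltf, the granule protein lactoferrin (0.986), Ttc33 (0.979), Maged2 (0.975) and Dmac2l (0.974). Camp ranked 2, Ngp 4 and S100a8 9 among the 20024, and the red cell genes ranked from 487 (Hba-a1) to 1319 (Hbb-b1). The log2 fold changes of the 5 most alike genes were -1.80 for Retnlg, -1.54 for Ltf, -0.44 for Ttc33, -0.54 for Maged2 and -0.16 for Dmac2l. Ttc33, at 0.01, and Dmac2l, at 0.17, turned positive with normexp, another background correction, centred on the median gene, and Dmac2l also with the median of all probes as the scale (0.04).

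Genes that move together can be set beside their promoters. The RefSeq windows of assembly GRCm38.p6 held 7 of the 8 genes, Hbb-b1 through Hbb-bt, and the 250 bases before the start were searched on both strands for AGATAA and for TGATAA, letters known from sites of GATA factors, for CCACACCC (Kruppel-like factors) and for TTGCNNAA (C/EBP factors). Hba-a1 held TGATAA with its first base at -183 and Alas2 held AGATAA at -86 on the opposite strand. S100a9 held TTGCNNAA at -236 and AGATAA at -30, Ngp held TTGCNNAA at -138 and at -11 on the opposite strand, and Camp held CCACACCC at -105. The Hbb-bt and S100a8 windows held none of them. Of 32851 windows of the same length, 16.6% held a GATA motif of either spelling, 9.6% TTGCNNAA and 3.2% CCACACCC. The windows with a GATA motif in a red cell gene and with a C/EBP motif in a neutrophil gene are shown, motifs in capitals, at chr11:32283422-32283671 (plus), chrX:150547167-150547416 (plus), chr3:90695722-90695971 (minus) and chr9:110419558-110419807 (plus) in GRCm38.p6.
Hba-a1 promoter: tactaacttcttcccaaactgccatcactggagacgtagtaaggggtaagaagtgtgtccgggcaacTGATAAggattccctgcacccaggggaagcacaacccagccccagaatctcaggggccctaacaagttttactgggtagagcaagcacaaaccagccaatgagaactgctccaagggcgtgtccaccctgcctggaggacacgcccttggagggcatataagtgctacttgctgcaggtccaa
Alas2 promoter: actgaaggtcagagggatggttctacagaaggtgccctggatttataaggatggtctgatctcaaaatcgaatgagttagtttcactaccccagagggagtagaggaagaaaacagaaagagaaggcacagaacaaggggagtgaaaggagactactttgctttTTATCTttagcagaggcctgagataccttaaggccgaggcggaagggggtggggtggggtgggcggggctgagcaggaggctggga
S100a9 promoter: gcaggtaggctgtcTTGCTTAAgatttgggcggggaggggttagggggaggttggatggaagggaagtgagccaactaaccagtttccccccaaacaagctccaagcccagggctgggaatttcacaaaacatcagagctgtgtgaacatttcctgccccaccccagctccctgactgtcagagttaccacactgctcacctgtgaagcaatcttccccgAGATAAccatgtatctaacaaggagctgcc
Ngp promoter: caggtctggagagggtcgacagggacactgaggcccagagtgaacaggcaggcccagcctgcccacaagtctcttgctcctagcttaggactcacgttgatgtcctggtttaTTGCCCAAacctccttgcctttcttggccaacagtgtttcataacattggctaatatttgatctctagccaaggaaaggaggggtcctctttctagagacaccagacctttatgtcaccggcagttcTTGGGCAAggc
A match is a description of letters in these windows and not evidence of a bound site.

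Other genes of red cells were tested from a list of 25, of which 22 had a probe under their own name and 13 entered. Hbb-bt was counted as without a probe, because the probes with its accession kept the name Hbb-b1. In HE 3 fell, 1 rose and 9 did not pass, where 13.3% of all genes fell and 6.83% rose. The median log2 fold change was -0.38 beside -1.08 for the 4 red cell members. Under normexp 6 fell and none rose (median -1.02, and -0.8 when centred on the median gene), beside -0.99 and -0.77 for the members, where 35.3% and 27.9% of all genes fell. Rhd, the Rh blood group antigen, fell by 1.69 (limma adjusted p = 0.0138), with all HE arrays (-6.16 to -5.11) below all NC arrays (-5.03 to -3.18). Hba-a2, whose signal cannot be fully separated from that of Hba-a1, fell by 1.15 (limma adjusted p = 0.0428). The call was kept in 2 of 10 fits with an array left out, without NC 1 and without NC 3. Its log2 fold change was -1.4 to -0.97 over the 10 fits. Slc25a37, the mitochondrial iron carrier mitoferrin, fell by 0.39 (adjusted p = 0.0169), but its value was 0.01 with normexp centred on the median gene. Ermap, an erythroid membrane protein, rose by 1.52 (adjusted p = 0.0364) and entered through HE, being well above background on 5 HE and 2 NC arrays, but had -1.18 under normexp and -0.96 when that was centred. Ahsp, which stabilises free alpha globin and is named here after its values were seen, had -1.56 and did not pass (adjusted p = 0.0548). With each array left out in turn Rhd and Slc25a37 passed in 10 of 10 fits and Ermap in 3, without NC 1, NC 2 or NC 3 (1.06 to 1.75 over the 10 fits). Klf1 and Gata1, transcription factors of red cell precursors, had 0.15 and 0.17 and did not pass (adjusted p = 0.785 and 0.648) in this setting. Under normexp the log2 fold change of Klf1 was -1.23 and that of Gata1 -1.44, and both passed as lower (adjusted p = 0.0360 and 0.0424). Klf1 was also below 0 with slide as a fixed block (-1.36). Epb42 and Rhag, which are red cell membrane proteins, and the embryonic globin Hba-x were well above background on 0 of 10 arrays.

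Of the 8 enzymes of heme synthesis that are not particular to red cells, 1 rose and 2 fell, with a median of 0.16. Over all genes 6.83% rose and 13.3% fell. With normexp centred on the median gene 3 rose and none fell (median 0.38), where 16.2% of all genes were higher. Alas1, the housekeeping form of the enzyme that Alas2 encodes in red cells, rose by 0.31 (limma adjusted p = 0.0357). Urod fell by 0.37 (adjusted p = 0.0423), though it was 0.05 with normexp centred on the median gene, and Ppox fell by 0.35 (adjusted p = 0.0238). With each array left out in turn Ppox passed in 8 of 10 fits, not without NC 2 (-0.34) or HE 1 (-0.35), Urod in 3 (-0.43 to -0.3) and Alas1 in 2 (0.25 to 0.34). Over the 10 arrays Alas1 ranged from 2.88 to 3.23 in NC and from 3.36 to 3.5 in HE, with no overlap.

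Other neutrophil genes came from a list of 24, of which 22 had a probe and 14 entered. Mpo, the myeloperoxidase of primary granules, fell by 1.33 (limma adjusted p = 0.0401) and was the only gene of the 14 to pass, and none rose. Over all genes 13.3% passed as lower. The median of the 14 was -0.21, beside -1.74 for the 4 neutrophil members, and 8 of the 14 were below 0. Under normexp 7 of the 14 fell (median -1.14, and -0.93 when centred), where 35.3% of all genes fell, or 27.9% when centred. With the value table or quantile normalization 1 rose and none fell (median -0.01). With each array left out in turn Mpo passed in 3 of 10 fits, without NC 1, NC 3 or HE 2 (-1.56 to -1.04 over the 10 fits). Mmp9, a gelatinase of neutrophil granules, had -0.82 and did not pass (adjusted p = 0.129). Elane, Cxcr2, Stfa1, Stfa2, Stfa2l1 and Fcnb were well above background on 0 of 10 arrays. Log2 of the summed level of the 14 genes was 0.35 to 1.35 in NC and 0.37 to 1.05 in HE.

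Markers of other cells of blood and vessel were read beside them. Of 8 platelet genes, Ppbp, a platelet chemokine, fell by 1.71 (limma adjusted p = 0.018), Gp6 by 0.94 (0.0144), and Gp1bb rose by 0.94 (0.0199), with a median of -0.44. Under normexp 5 of the 8 fell and none rose. Over all genes 35.3% fell under normexp and 27.9% when it was centred, and these shares also stand beside the normexp counts below. Gp6 was well above background on 3 NC and 2 HE arrays, so its fold rests partly on dim signals, and it entered 7 of the 10 fits with an array left out, passing in all 7. Of 7 blood monocyte genes 5 fell, Lyz1 by 1.10, Lyz2 by 1.07, Plac8 by 1.07, Ly6c1 by 0.69 and Ly6c2 by 0.62, and none rose. Over all genes tested 13.3% were lower. Lyz1 and Lyz2 ran in parallel, both lowest in NC on NC 1 (-1.53 and 1.34) and highest on NC 5 (-0.01 and 2.9). Ly6c1 and Ly6c2 were likewise both highest on NC 5 (2.16 and 4.31). Whether the probes of such a pair share a target was not tested, so the 5 calls may not be 5 separate signals. Ccr2, the other gene of that list, was well above background on 1 of 10 arrays and was not tested. Log2 of the summed level of the monocyte list was 4.29 to 5.05 in NC and 3.58 to 3.99 in HE, and it did not overlap. Ly6c2, with the highest mean of that list (3.87 in NC, against 2.2 for Lyz2), weighs most in this sum. Among single genes, 10.5% of all tested had every HE array below every NC array. With each array left out in turn, Ppbp passed in 10 of 10 fits, and Gp1bb and Lyz1 were lost without NC 2 (0.89 and -1.1). Ly6c1 was lost without HE 1 (-0.63), Plac8 passed in 7 fits (-1.27 to -0.83), Ly6c2 in 6 (-0.7 to -0.51) and Lyz2 in 5 (-1.28 to -0.9). Lyz2 is also made by microglia and Ly6c1 by brain endothelium. Of 7 T and B cell genes none passed, with a median of 0.04, but 4 fell under normexp (median -1.28) and when it was centred (-1.06). Of 12 brain endothelial genes only Kdr, a receptor for vascular endothelial growth factor, passed, and it fell by 0.56 (adjusted p = 0.0235; -0.55 and not passing without HE 1), with a median of -0.34 for the list. Without NC 3, 6 of the 12 fell, and under normexp 7 (median -0.78) or, when centred, 5. Of 10 microglia genes only Cx3cr1, the fractalkine receptor, passed, and it rose by 0.64 (adjusted p = 0.0192), with a median of 0.08. With slide as a fixed block none of the genes of these lists passed. The part of any of these cell types in the differences of the 8 genes was not tested.

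**Figure D5:**
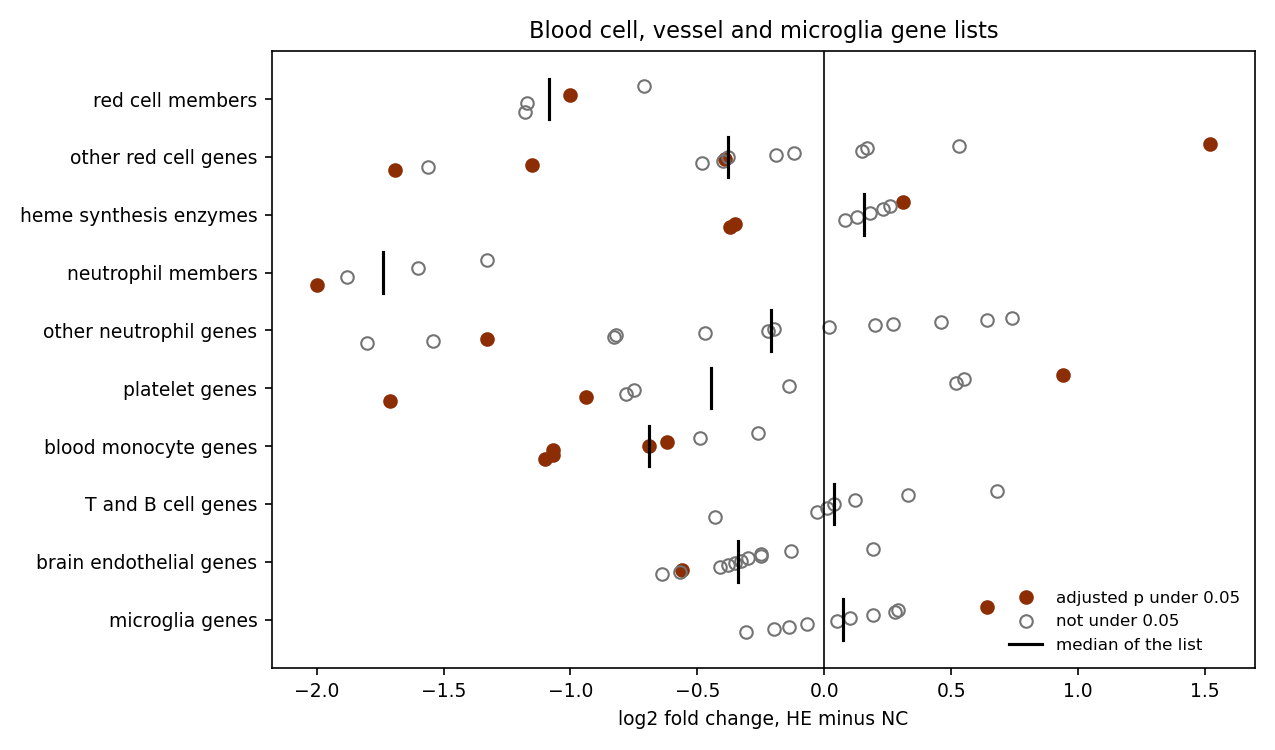
Log2 fold change of HE minus NC (horizontal axis) for each tested gene of 10 lists, filled where the limma adjusted p is under 0.05; short vertical lines are list medians, and the height within a row has no meaning. The medians of the neutrophil and red cell members are -1.74 and -1.08, and those of the T and B cell and microglia lists are near 0 in this setting, 0.04 and 0.08 (-1.28 and 0.13 under normexp).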

How the data were processed

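Per the labels' protocols, total RNA was amplified and labelled with Cy3 and hybridised to 1-colour Agilent arrays, and Agilent Feature Extraction 10.7 quantified the images, per the submitters' processing notes. The deposited scanner files hold spot intensity on a linear scale, background-subtracted and detrended per the file headers, from 2 scans joined for bright spots. A value table deposited by the authors holds log2 values that matched the log2 intensities after quantile normalization (Pearson r = 0.999999, slopes 1.002 to 1.003, column medians 7.03). How that table was made is not given in the sources used here.

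The log2 processed intensity was expressed relative to the 75th percentile of its array. This was computed over the 43379 non-control spots of 41174 probes, before any spot was left out. Spots with non-uniformity or population outlier marks, 68 to 129 per array, were left out. None of the spots of the 8 genes was left out, and no spot was saturated. The globin probes took their signal from the low-gain scan on 8 to 10 of the 10 arrays, so their scale rests on how the scans were joined. Spots of a probe were averaged, and 30984 probes entered, those well above background on 3 or more of the 5 arrays in NC or in HE. A gene is its entering probe with the highest mean. Genes were named through the RefSeq table of GRCm38.p6, 27668 probes by accession, while the probes of the 8 genes kept the files' names. Probe positions are the files' own, on mm9. The number of arrays limits the precision.

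HE was tested against NC with limma 3.58.1 (R 4.3.3), using lmFit followed by eBayes without covariates, two-sided, with Benjamini-Hochberg adjustment over all genes or all probes and a threshold of 0.05. Exact permutation tests of single probes were run with scipy 1.17.1, and permutation tests of correlations (100000 resamples) with numpy 2.4.6. The 8 genes, the gene lists, the rules and the alternatives were chosen with earlier results of these data known. Named genes are the 8 members, up to 4 genes of smallest p in each list, genes a count must name, and the 5 most alike genes per class. A few genes of the lists are not reported here by name. Replicate numbers were not taken to pair arrays: same-numbered arrays deviated together with correlations of -0.077 to 0.127. The test was checked on simulated data.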

Additional observations from a re-analysis of the deposited data

Results flagged for a closer look

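S100a8 on HE 5 read -3.51, while the other 4 HE arrays read -2.49 to -2.17. It was picked out because its gap to the nearest array made up 0.764 of the range of the 5 HE arrays, above the critical value of 0.71 of Dixon's test. Of 22 groups tested (11 probes in each of the 2 groups) it was the only 1, and chance gives about 1 such value in 20 groups. HE 5 was also the lowest HE array for S100a9 (-0.84), but not for Ngp or Camp.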

How the results depend on the processing

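All 8 genes stayed below 0 in every alternative in which they were tested, 25 to 27 per gene. Hbb-b1 passed in 16 of 27 (-1.55 to -0.57, adjusted p 0.014 to 0.185) and Ngp in 11 of 26 (-3.82 to -1.57, adjusted p 0.00664 to 0.18). Hba-a1 passed in 9 of 27 (-2.02 to -0.72), and Alas2, Slc4a1, S100a8 and Camp in 3 each and S100a9 in 2. The main counts were 1370 genes higher and 2663 lower, 1 red cell gene, 1 neutrophil gene, 6 of the 11 probes, and 6, 6 and 16 pairs.

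With slide as a fixed block 104 genes were higher and 81 lower, and on slide 2 alone 0 and 0, with 0 red cell genes, 0 neutrophil genes and 0 probes in both. On slide 2 alone NC 5 is a lone NC array assumed to vary like the HE arrays. Slide as a random block gave 2 red cell genes, where 14.2% of all genes were lower. The correlation between arrays of a slide was estimated at -0.025 there, so this fit hardly adjusted for slide. Normexp gave 7085 lower, 3 red cell and 4 neutrophil genes, and shifted the median gene to -0.289. Normexp centred on the median gene, added after the data were seen, gave 3250 higher and 5605 lower and 3 neutrophil genes. The median of all probes as the scale gave 3329 higher (65.7% of calls, against 34% in the main setting) and 1740 lower and 0 red cell genes, with a median gene of 0.157. Quantile normalization and the value table each gave 2 red cell and 0 neutrophil genes, with 44.2% and 44.6% of calls higher. No filter gave 0 neutrophil genes and 3 probes, and the filters on all 5 and all 10 arrays gave 2 red cell genes each, the latter 0 neutrophil genes, since Ngp and Camp no longer entered. The mean of the probes gave 2 red cell genes, and an intensity trend with a robust prior gave 3. Without NC 1, NC 2 and NC 4, 1094 were lower, with 0 red cell genes, 0 neutrophil genes and 0 probes. The arrays with high Xist gave 7 higher and 72 lower, and 0 of the 8 genes and 0 probes. Ahsp passed in 8 of 27 alternatives. Unless a reason is given, the cause of these changes was not tested.

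Leaving out each array in turn gave 601 to 1572 higher, 1322 to 2718 lower, 0 to 4 red cell genes, 0 to 4 neutrophil genes, 0 to 8 probes and 9 to 16 pairs between the classes.

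With the replicate block, 769 genes were higher, 0 red cell genes, 1 neutrophil gene and 1 probe passed. The numbers do not pair the arrays, and only replicates 3 and 4 correlated best with their own number.

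Named genes that changed sign were Cd3e (-0.89 under normexp and -0.67 when centred), Cd4 (-0.79 and -0.58) and Ermap (-1.18 and -0.96). The log2 fold change of Klf1 was -1.36 with slide as a fixed block and on slide 2 alone, -0.023 to 0.386 when each array was left out in turn (below 0 without NC 1 and without HE 4), -0.28 without NC 1, NC 2 and NC 4, -0.0128 with the Xist pattern as a covariate, -1.23 under normexp and -1.02 when centred, and Gata1 -1.44 and -1.22 under normexp and when centred. With the median of all probes as the scale, the log2 fold change of C1qc was 0.00076 and that of Dmac2l 0.0382. Alad (-0.59) and Camk2a (-0.19) did so with the mean of the probes. With normexp centred on the median gene C1qc (0.16), Dmac2l (0.17), Slc25a37 (0.0093), Slc2a1 (0.14), Ttc33 (0.0059) and Urod (0.049) turned positive.

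Ngp and Camp were not well above background on 1 and 3 of the 10 arrays, and their fold rests partly on such signals.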
